A study of Mus musculus with 36 samples.

Results

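The genes described here encode the proteins of the cytosolic ribosome. They were chosen as the protein-coding rows of the 3 deposited expression tables whose mouse symbol is Rpl, Rps or Rplp followed by a number and at most 1 of the letters a, l or x. The rule found 79 genes among 21900 protein-coding rows: 30 for the small subunit, 46 for the large subunit and 3 for the stalk of the large subunit (Rplp0, Rplp1 and Rplp2). They lie on 19 chromosomes. RNA sequencing covered 36 libraries in 12 groups of 3, which are 4 cell populations of wild-type mice, each after OMV-SIRP-G, OMV-SIRP or phosphate-buffered saline (PBS). The labels give neither the make-up of both OMV agents nor a dose, a time, an age or a strain. Bone marrow gave the granulocyte-macrophage progenitors (GMP) and the monocytes, and tumours gave the macrophages named TAM, for tumour-associated macrophages, from B16-F10 melanomas or MC38 colon carcinomas. The labels tie no library to a mouse of its own, and the design text mentions pooling, so the spread behind each p-value is that between libraries and may be technical.

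A ribosome joins a small subunit, which reads the messenger RNA, to a large subunit, which makes the peptide bond. Each subunit is a frame of ribosomal RNA with many proteins, and the stalk proteins recruit the elongation factors. The proteins are needed in equal numbers, except that stalk proteins bind in several copies. Most of their mRNAs begin with a cytidine and an unbroken run of pyrimidines, the 5′ terminal oligopyrimidine (TOP) motif, through which mTORC1 and the RNA-binding protein Larp1 adjust their translation. Growing progenitors and activated myeloid cells are known to tie protein synthesis to mTORC1 signalling.

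RefSeq promoter windows (GRCm38.p6) were found for 59 of the 79 genes, with 71 annotated starts. The windows below show 10 genes whose RNA level passed a test in the results, chosen for the range from a long pyrimidine run to hardly any. Each runs 5′ to 3′ on the gene's strand from 35 bases before the annotated start to 15 bases from it on. Capitals mark the longest pyrimidine run that falls between 5 bases before the start and the window's end.
Rpl27a (chr7:109519160-109519209, plus strand): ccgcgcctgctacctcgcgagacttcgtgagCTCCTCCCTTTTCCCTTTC
Rpl15 (chr14:18270972-18271021, minus strand): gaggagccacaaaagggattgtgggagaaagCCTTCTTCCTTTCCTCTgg
Rpl35 (chr2:39005117-39005166, minus strand): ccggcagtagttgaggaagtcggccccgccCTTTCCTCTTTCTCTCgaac
Rpl7a (chr2:26910772-26910821, plus strand): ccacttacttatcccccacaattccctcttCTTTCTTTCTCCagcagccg
Rpl14 (chr9:120571482-120571531, plus strand): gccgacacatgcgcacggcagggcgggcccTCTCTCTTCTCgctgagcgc
Rps6 (chr4:86857353-86857402, minus strand): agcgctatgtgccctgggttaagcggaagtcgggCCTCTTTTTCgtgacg
Rps27 (chr3:90213634-90213683, minus strand): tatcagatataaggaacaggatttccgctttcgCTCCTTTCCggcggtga
Rpl39 (chrX:37085208-37085257, minus strand): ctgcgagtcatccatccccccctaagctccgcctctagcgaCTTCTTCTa
Rps28 (chr17:33824548-33824597, minus strand): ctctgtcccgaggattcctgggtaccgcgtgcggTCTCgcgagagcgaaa
Rpl11 (chr4:136053379-136053428, minus strand): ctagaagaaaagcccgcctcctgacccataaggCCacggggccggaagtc

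A run of at least 6 pyrimidines near the start was present in 29 of the 71 windows (40.8%), against 17.6% of 32851 promoters of all genes. The start itself was a C in 28.2% of them, against 16.3% of all promoters. Over the 300-base promoters, the motif CCGGAAG, the core bound by ETS-family factors, occurred on either strand in 35.2%, against 8.86% of all. The motif AAGATGGC, the core bound by Yy1, occurred on either strand in 9.86%, against 2.75%, and TATAAA on either strand in 8.45%, against 13.6%. A match describes the letters of the annotated window, and an annotated start can lie some bases from the one a cell uses.

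Levels are given as FPKM, fragments per kilobase of gene scaled to sequencing depth by the authors. The length is that of the deposited gene model with all its exons, such as 6270 bases for Rps15a, whose coding part is 390 bases long, so the order of levels between genes depends in part on the annotation. In GMP, Rplp0 had 38220 to 61760 reads per library and Rplp1 15295 to 22979, although Rplp1 was higher in FPKM. In GMP, monocyte, B16 TAM and MC38 TAM libraries, 70, 70, 64 and 63 of the 79 genes averaged over 100 FPKM across the 9 libraries of the population. The median gene averaged 312 FPKM in GMP, 356 FPKM in monocytes, 270.0 FPKM for B16 TAM and 244 FPKM for MC38 TAM. These 4 medians come from 3 tables that were scaled separately, so their order is not a comparison. The stalk gene Rplp1 was highest in every population, averaging 2153 FPKM in GMP, 2552 FPKM in monocytes, 3058 FPKM for B16 TAM and 2010 FPKM for MC38 TAM. Rplp0, the stalk base, was next in GMP, monocytes and MC38 TAM with 1648, 1963 and 1404 FPKM, and in B16 TAM it followed Rpl36 with 1221 FPKM. Rps15, which lies near the decoding site, averaged 997, 1289, 1117 and 976 FPKM in the same 4 populations. The 8 highest genes carried 29.3%, 29.4%, 35.1% and 32.5% of the members' summed FPKM in those populations. The order of the 79 levels was much alike between populations, with Spearman's rho between 0.946 and 0.988, a description over genes that share their length and sequence in every table.

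The 7 rows that averaged under 50 FPKM in every population were Rpl10l, Rpl39l, Rpl3l, Rps10, Rpl24, Rpl13a and Rpl21. Rpl10l, the testis copy of Rpl10, was listed at 0 in all 4 populations. Rpl39l averaged 0.160 FPKM in GMP, 0.185 FPKM in monocytes, 0.573 FPKM for B16 TAM and 0.0341 FPKM for MC38 TAM. Rpl3l, the muscle copy of Rpl3, averaged 0.612, 0.436, 0.0756 and 0.120 FPKM in the same order. Its counterpart Rpl3 averaged 367, 445, 329 and 394 FPKM.
Rps10 averaged 1.21, 0.880, 0.642 and 4.45 FPKM, although the rows of its pseudogenes summed to 600, 738, 601 and 523 FPKM. Most of that sum was the row Rps10-ps2. Rpl24 has no pseudogene row under its own name, but its row overlaps the gene model Gm28037, so its level is uncertain too. The single named pseudogene row of Rpl13a, known in human cells for silencing inflammatory mRNAs, was at or near 0. Rpl21 averaged 30.5, 38.3, 27.9 and 24.0 FPKM beside 223, 280, 216 and 254 FPKM in its pseudogene rows. The tables hold 299 pseudogene rows named after a ribosomal protein gene, and 58 of the 79 genes have some. Pseudogene rows under other names were not sought. How reads were split between near-identical copies is not given in the sources used here. The levels of Rps10, Rpl21 and Rpl17, which lie under their pseudogene rows in every population, and of Rpl30 and Rpl34 in MC38 TAM, are therefore uncertain. The same holds for the 18 genes that overlap another protein-coding gene, among them Rpl15, Rpl32, Rpl35, Rps25, Rps27a and Rps28 of the genes called below, since the strand used in counting is not stated.

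The ratio within paralogue pairs varied between populations. Rps27, a zinc-binding small-subunit protein, averaged 260 FPKM in GMP, 352 FPKM in monocytes, 195 FPKM for B16 TAM and 218 FPKM for MC38 TAM. Rps27l, its p53-inducible copy, averaged 59.0, 60.6, 145 and 94.6 FPKM, which makes ratios of means of 4.40, 5.80, 1.35 and 2.30. Within single libraries, Rps27 over Rps27l ran from 2.17 to 6.31 in GMP, 4.32 to 7.97 in monocytes, 0.535 to 2.13 for B16 TAM and 1.52 to 3.43 for MC38 TAM. These ranges overlap in part, and the difference between populations was not tested. In B16 TAM, Rps27l measured 157, 155 and 175 FPKM after OMV-SIRP-G, 157, 115 and 161 FPKM after OMV-SIRP, and 127, 133 and 124 FPKM after PBS. Its log2 difference between OMV-SIRP-G and PBS was 0.34 ± 0.13 (SE; limma, adjusted p = 0.123), and the 3 OMV-SIRP-G values lay above the 3 PBS values. Rpl22, an RNA-binding protein needed in lymphocyte development, averaged 106, 121, 76.2 and 105 FPKM, against 37.5, 39.2, 16.8 and 18.7 FPKM for its copy Rpl22l1, which is outside the rule.

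**Figure D1:**
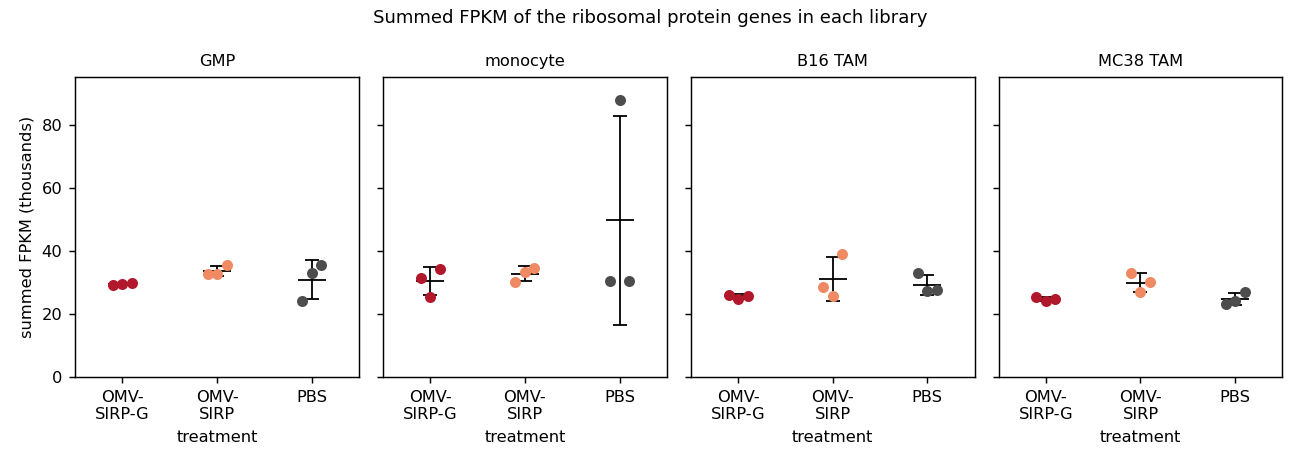
Summed FPKM of the 79 ribosomal protein genes in each library, 1 panel per population and 1 point per library, with the group mean and SD. Monocyte PBS library 2 sits at 87856 FPKM, against 30619 and 30449 FPKM in the other PBS libraries, and GMP PBS library 1 sits below both its mates.

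Several libraries stood apart in these genes before any comparison. Reads assigned to genes numbered 13036567 to 19822660 per library. The 79 genes took 3.98% to 6.67% of them, except in monocyte PBS library 2 with 11.4%. In that library all 76 tested members lay above the mean of the other PBS monocyte libraries, by a median of 1.505 on the log2 scale, while the median over all genes tested was 0.04. GMP markers summed to 1914 FPKM there, against 884 to 900 FPKM in its mates, and neutrophil markers to 7363 FPKM, against 3011 to 3275 FPKM. Erythroid markers summed to 426 FPKM, against 138 to 145 FPKM, and macrophage markers to 1373 FPKM, against 824 to 848 FPKM. The other cell type lists were higher there too, except melanocyte markers (9.64 FPKM, against 14.9 to 15.5) and fibroblast and endothelial markers (5.60 FPKM, against 7.69 to 7.97). Their part in the difference was not tested. GMP PBS library 1 lay the other way, with 1 of 76 members above its mates and a median of −0.49. In B16 TAM, OMV-SIRP library 3 had all 77 tested members above its mates (median 0.51), and OMV-SIRP library 2 had 1 of 77 above (median −0.38). Monocyte OMV-SIRP-G library 2 had 3 of 76 above its mates (median −0.38).

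The spread between libraries of a group was wider for these genes than for other genes over 100 FPKM in 3 populations. The members here were all those tested, including those under 100 FPKM, so the sets differ in level. The median within-group SD of log2(FPKM + 1) was 0.186 for members in GMP, against 0.0894 for 333 other genes over 100 FPKM. Monocytes had 0.534 against 0.257, B16 TAM 0.209 against 0.146, and MC38 TAM 0.180 against 0.247. Rps27a, which makes ubiquitin fused to a small-subunit protein, was among the 8 most variable members in every population, with SDs of 0.53, 1.14, 0.885 and 0.513. These SDs differ between populations as the libraries above do, and the spread enters each test below. How far it accounts for the number of calls was not tested.

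Tests were run within each population with limma on log2(FPKM + 1), and a gene was called at a Benjamini-Hochberg adjusted p under 0.05 over all genes tested. The numbers of members that passed the filter on low values were 77 for B16 TAM and 76 for each other population. In bulk RNA, fewer cells of a type and less RNA per cell cannot be told apart. By these limma tests, calls were most frequent in MC38 TAM, fewer in B16 TAM, and there was none in GMP or monocytes with all libraries in the fit.

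**Figure D2:**
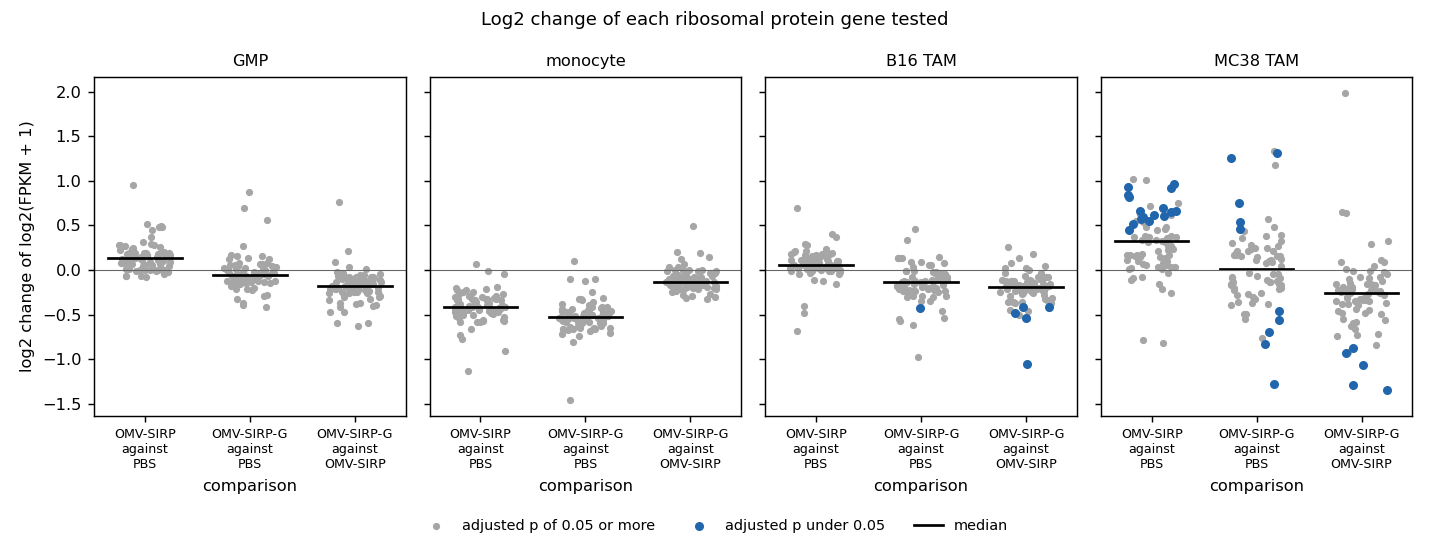
Log2 change of log2(FPKM + 1) for each ribosomal protein gene tested, by comparison and population; blue points have an adjusted p under 0.05 and bars mark medians. The MC38 TAM comparison of OMV-SIRP with PBS has a median of 0.32 and 16 calls, all higher, as deposited, but a median of −0.06 when libraries are scaled to total reads.

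In MC38 TAM, OMV-SIRP set against PBS gave higher values for ribosomal protein genes of both subunits. Of 76 members tested, 16 rose and none fell, while 7.4% of all 14089 genes tested rose. Of the 76, 67 lay above 0, the members' median log2 difference was 0.32, and that over all genes was 0.03. This direction holds in the deposited scaling, where 28 members had groups that did not overlap (15.5% of all genes in that direction), and turns with the scaling: with every library set to the same total of assigned reads the members' median was −0.06, with 2 higher and 4 lower (4.95% and 11.6% of all genes), while all genes shifted to −0.27. Mitochondrial transcripts took 15.2% to 21.5% of reads in the OMV-SIRP libraries and 2.98% to 5.07% in the PBS libraries. With those transcripts left out of the total, the median was 0.19, with 8 higher and none lower.

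Marker levels of other cell types and of macrophages also differed. The 10 macrophage markers summed to 1598 to 2262 FPKM in the OMV-SIRP libraries, 1357 to 1389 FPKM in the OMV-SIRP-G libraries and 64.1 to 172 FPKM in the PBS libraries, where Mertk was listed at 0. All 10 rose after either agent against PBS, so the MC38 PBS libraries held low levels of the markers of the cell type in their label. The 10 T and NK cell markers summed to 171 to 690, 568 to 642 and 101 to 161 FPKM in the same order. Of 12 immediate-early and heat-shock genes, which respond to handling and stress, 7 rose after OMV-SIRP and 8 after OMV-SIRP-G against PBS and none fell. Of all genes tested, 7.4% and 13.1% rose in those comparisons. The 12 genes summed to 1011 to 1400 FPKM after OMV-SIRP, 1485 to 1542 FPKM after OMV-SIRP-G and 461 to 534 FPKM after PBS. The part of these shifts in the ribosomal protein results was not tested.

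Among small-subunit genes, 7 of 30 rose after OMV-SIRP, and Rps28 and Rps29 had the largest differences. Rps28, which lines the mRNA exit channel, measured 128, 141 and 146 FPKM in the OMV-SIRP libraries and 54.4, 87.2 and 74.1 FPKM in the PBS libraries. The groups did not overlap, and the log2 difference was 0.96 ± 0.19 (SE; limma, adjusted p = 0.0144).
Rps29, a zinc-binding protein of the small-subunit head, measured 253, 264 and 309 FPKM after OMV-SIRP and 132, 143 and 158 FPKM after PBS. Every OMV-SIRP library was above every PBS library, and the difference was 0.93 ± 0.13 (adjusted p = 0.00359). It stayed past the threshold with total-read scaling at 0.54 (adjusted p = 0.0400), while Rps28 did not, at 0.58 (adjusted p = 0.0769).
Rps15 measured 1301, 1169 and 1142 FPKM after OMV-SIRP and 744, 765 and 849 FPKM after PBS, with no overlap and a difference of 0.62 ± 0.12 (adjusted p = 0.0140). Rps9, an early-assembling protein, measured 431, 371 and 412 FPKM after OMV-SIRP and 222, 286 and 330 FPKM after PBS (0.55 ± 0.15, adjusted p = 0.0495). The Rps9 groups were apart too, and its adjusted p lay at the edge of the threshold.
Rps26, which contacts mRNA upstream of the start codon, and Rps25, needed for some internal initiation, also rose, by 0.69 ± 0.15 (adjusted p = 0.0196) and 0.67 ± 0.16 (adjusted p = 0.0292). Rps19, the gene most often mutated in Diamond-Blackfan anaemia, was not called (adjusted p = 0.106), with 167, 128 and 169 FPKM after OMV-SIRP and 99.3, 104 and 133 FPKM after PBS.

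Among large-subunit genes 9 of 43 rose, and several encode very small proteins. Rpl37a, a zinc-binding protein, measured 320, 344 and 305 FPKM after OMV-SIRP and 187, 199 and 132 FPKM after PBS. The groups were well apart, and the difference was 0.92 ± 0.16 (limma, adjusted p = 0.00961).
Rpl27a, whose window above holds a long run of pyrimidines, measured 268, 235 and 236 FPKM after OMV-SIRP and 120, 147 and 144 FPKM after PBS. All OMV-SIRP values exceeded all PBS values (0.84 ± 0.13, adjusted p = 0.00497), and with total-read scaling the difference was 0.46 (adjusted p = 0.0436).
Rpl11, which with Rpl5 can bind Mdm2 and stabilise p53, measured 203, 154 and 246 FPKM after OMV-SIRP and 111, 131 and 132 FPKM after PBS (0.66 ± 0.17, adjusted p = 0.0422). Its partner Rpl5 measured 291, 268 and 230 FPKM after OMV-SIRP and 240, 245 and 259 FPKM after PBS, which overlap. Rpl15 measured 185, 153 and 203 FPKM after OMV-SIRP and 131, 125 and 120 FPKM after PBS, without overlap (0.51 ± 0.14, adjusted p = 0.0462).
The other calls were Rpl36a (0.81 ± 0.18, adjusted p = 0.025), Rpl37 (0.65 ± 0.17, adjusted p = 0.0452), Rpl32 (0.61 ± 0.13, adjusted p = 0.0233), Rpl29 (0.60 ± 0.15, adjusted p = 0.0363) and Rpl35 (0.57 ± 0.14, adjusted p = 0.0295). Rpl38, known in mice for its part in translating Hox mRNAs, measured 298, 214 and 369 FPKM after OMV-SIRP and 191, 188 and 144 FPKM after PBS. Its groups did not overlap, but it was not called (0.72 ± 0.21, adjusted p = 0.0583).

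None of the 3 stalk genes was called in that comparison. Rplp0 measured 1760, 1495 and 1440 FPKM after OMV-SIRP and 1395, 1357 and 1432 FPKM after PBS (adjusted p = 0.355). Rplp1 measured 2302, 1753 and 2243 FPKM after OMV-SIRP and 1768, 1737 and 2086 FPKM after PBS (adjusted p = 0.447). The Rplp1 groups overlapped and the Rplp0 groups were close but apart. Rplp2 had 303, 220 and 264 FPKM after OMV-SIRP and 191, 194 and 226 FPKM after PBS (adjusted p = 0.156). Leaving out PBS library 1, PBS library 2 or OMV-SIRP library 1 lowered the 16 calls to 4, 7 or 5, and a fit of the 6 libraries alone gave 2.

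**Figure D3:**
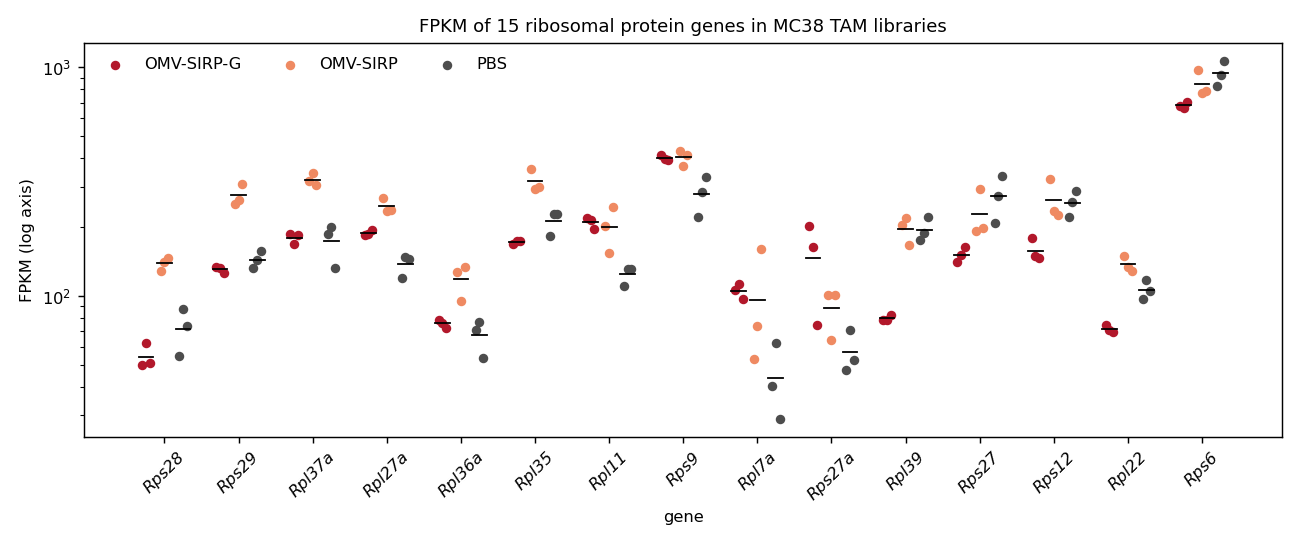
FPKM on a log axis of 15 called ribosomal protein genes in the 9 MC38 TAM libraries, coloured by treatment, with bars at group means. In Rps28 and Rps29 the OMV-SIRP points lie above both other groups, and in Rpl39 the OMV-SIRP-G points at 78.1 to 82.2 FPKM lie below both.

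OMV-SIRP-G set against PBS in MC38 TAM gave calls in both directions. Of 76 members, 5 rose and 5 fell, against 13.1% of all genes tested that rose and 6.86% that fell, and the members' median was 0.01. The members' share that fell was thus near that of all genes, and the share that rose was below it. The 5 higher genes kept their sign but lost the call with total-read scaling, while the 5 lower genes stayed past the threshold in all 4 scalings run. With total-read scaling no member rose and 16 fell (median −0.18), against 10.1% of all genes that fell in that scaling. The macrophage and T cell markers given above differed between these groups as well.

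Rpl39, a tiny protein of the peptide exit tunnel, had the largest drop. It measured 78.1, 78.8 and 82.2 FPKM after OMV-SIRP-G, 204, 218 and 167 FPKM after OMV-SIRP, and 176, 189 and 220 FPKM after PBS. The 3 OMV-SIRP-G libraries were nearly equal and lay below every other MC38 library. The log2 difference from PBS was −1.27 ± 0.14 (limma, adjusted p = 0.000927) and that from OMV-SIRP −1.28 ± 0.14 (adjusted p = 0.0107). Both calls held with total-read scaling, at −1.46 (adjusted p = 0.0003) and −1.09 (adjusted p = 0.0130).
In the other populations Rpl39 was not called: its difference from PBS after OMV-SIRP-G was 0.16 ± 0.20 in GMP (adjusted p = 0.662), −0.63 ± 0.36 in monocytes (adjusted p = 0.461) and −0.15 ± 0.18 in B16 TAM (adjusted p = 0.659). Whether MC38 TAM differs from them was not tested.

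Rpl22 measured 74.9, 70.8 and 69.5 FPKM after OMV-SIRP-G, 150, 134 and 128 FPKM after OMV-SIRP, and 97.4, 117 and 105 FPKM after PBS. The 3 groups were apart, with OMV-SIRP highest. It fell by 0.56 ± 0.13 against PBS (limma, adjusted p = 0.0172) and by 0.93 ± 0.13 against OMV-SIRP (adjusted p = 0.025).
Rps27 measured 140, 151 and 164 FPKM after OMV-SIRP-G and 209, 274 and 336 FPKM after PBS, with no overlap (−0.82 ± 0.21, adjusted p = 0.0255). Rps12, studied in fruit flies for its role in cell competition, measured 179, 149 and 146 FPKM after OMV-SIRP-G and 221, 259 and 288 FPKM after PBS (−0.69 ± 0.17, adjusted p = 0.0236). Rps6, the S6 kinase substrate, measured 674, 666 and 704 FPKM after OMV-SIRP-G and 827, 922 and 1070 FPKM after PBS (−0.46 ± 0.13, adjusted p = 0.0421). In each gene the highest OMV-SIRP-G library was below the lowest PBS library.

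On the higher side, Rpl11 measured 218, 215 and 196 FPKM after OMV-SIRP-G and 111, 131 and 132 FPKM after PBS. The groups were apart (0.75 ± 0.17, limma, adjusted p = 0.0174), and with total-read scaling the difference was 0.56 (adjusted p = 0.0862).
Rpl7a measured 106, 113 and 97.3 FPKM after OMV-SIRP-G and 40.2, 62.3 and 28.9 FPKM after PBS (1.31 ± 0.39, adjusted p = 0.0431). Rps27a measured 202, 164 and 74.6 FPKM after OMV-SIRP-G and 47.6, 70.6 and 52.2 FPKM after PBS (1.26 ± 0.36, adjusted p = 0.0363). The Rps27a libraries of OMV-SIRP-G were far from each other, with the lowest close to the highest PBS library.
Rps9 at 412, 396 and 393 FPKM after OMV-SIRP-G lay above 222, 286 and 330 FPKM after PBS (0.53 ± 0.15, adjusted p = 0.0363). Rpl27a at 185, 186 and 193 FPKM after OMV-SIRP-G lay above 120, 147 and 144 FPKM after PBS (0.46 ± 0.13, adjusted p = 0.0331). Rpl41, a very short peptide between the subunits, was spread over 408, 137 and 151 FPKM after PBS beside 497, 521 and 531 FPKM after OMV-SIRP-G, and was not called (1.33 ± 0.52, adjusted p = 0.102).

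OMV-SIRP-G set against OMV-SIRP in MC38 TAM called 5 of 76 members, all lower, while 0.234% of all 14089 genes tested fell (33 genes). The 5 were Rps28, Rpl39, Rps29, Rpl22 and Rpl35. Rps28 had 49.8, 62.0 and 50.9 FPKM after OMV-SIRP-G, against 128, 141 and 146 FPKM after OMV-SIRP (−1.34 ± 0.19, limma, adjusted p = 0.0247). Rps29 had 134, 132 and 127 FPKM after OMV-SIRP-G, against 253, 264 and 309 FPKM (−1.06 ± 0.13, adjusted p = 0.0158). Rpl35, whose window holds one of the longest pyrimidine runs, had 168, 174 and 173 FPKM after OMV-SIRP-G, against 358, 294 and 300 FPKM (−0.88 ± 0.14, adjusted p = 0.0358). In all 5 genes the groups were far apart, and the OMV-SIRP-G libraries were close to each other.
Over all members the median was −0.26, 66 of 76 lay below 0, and 38 had OMV-SIRP-G libraries all below the OMV-SIRP libraries (10.1% of all genes in that direction). The median kept its sign with total-read scaling at −0.06, while all genes shifted to 0.21 and 1 call remained, that of Rpl39. The 3 reductions of Rps28, Rps29 and Rpl35 then had adjusted p-values of 0.0579, 0.0579 and 0.0886. With mitochondrial transcripts left out of the total the median was −0.28, and with scaling to the median of other genes −0.29. Both kept the 5 calls. Mitochondrial transcripts took 6.06% to 6.46% of reads after OMV-SIRP-G and 15.2% to 21.5% after OMV-SIRP. Leaving out any OMV-SIRP-G library removed all 5 calls, leaving out OMV-SIRP library 1 left 1, and leaving out OMV-SIRP library 3 gave 8.

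Short genes had larger median differences than long ones in 2 of the 3 MC38 TAM comparisons, in the deposited scaling. Among members with a coding length under 300 bases (9 genes), the median log2 difference between OMV-SIRP and PBS was 0.72, with 4 called higher, against 0.16 over 21 members longer than 600 bases, with 1 called. Between OMV-SIRP-G and OMV-SIRP, the medians were −0.84 for the short members, with 3 called lower, and −0.20 for the long ones, with none called. Over the 76 members, Spearman's rho between coding length and the difference was −0.33 for OMV-SIRP against PBS and 0.43 for OMV-SIRP-G against OMV-SIRP. Over 11525 other genes with a length it was −0.11 and 0.01. Other genes under 300 bases had a median of 0.45 (241 genes) for OMV-SIRP against PBS and −0.02 for OMV-SIRP-G against OMV-SIRP. For OMV-SIRP-G against PBS there was no such order among the members, with medians of −0.20 for the short and −0.13 for the long members and a rho of 0.08. Over other genes the medians there were 0.36 under 300 bases and 0.04 over 600 bases, with a rho of −0.10. GMP was like MC38 TAM in sign, with rho over the members of −0.47 for OMV-SIRP against PBS and 0.46 for OMV-SIRP-G against OMV-SIRP, and −0.23 and 0.13 over other genes, and its rho for OMV-SIRP-G against PBS was 0.01. In the same 2 comparisons rho over the members was −0.08 and −0.03 for B16 TAM and 0.12 and 0.02 in monocytes. Over other genes it was −0.01 and 0.005 for B16 TAM and 0.31 and 0.08 in monocytes. For OMV-SIRP-G against PBS in monocytes it was 0.17 over the members and 0.43 over other genes. These correlations run over genes of the same libraries and carry no test.

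**Figure D4:**
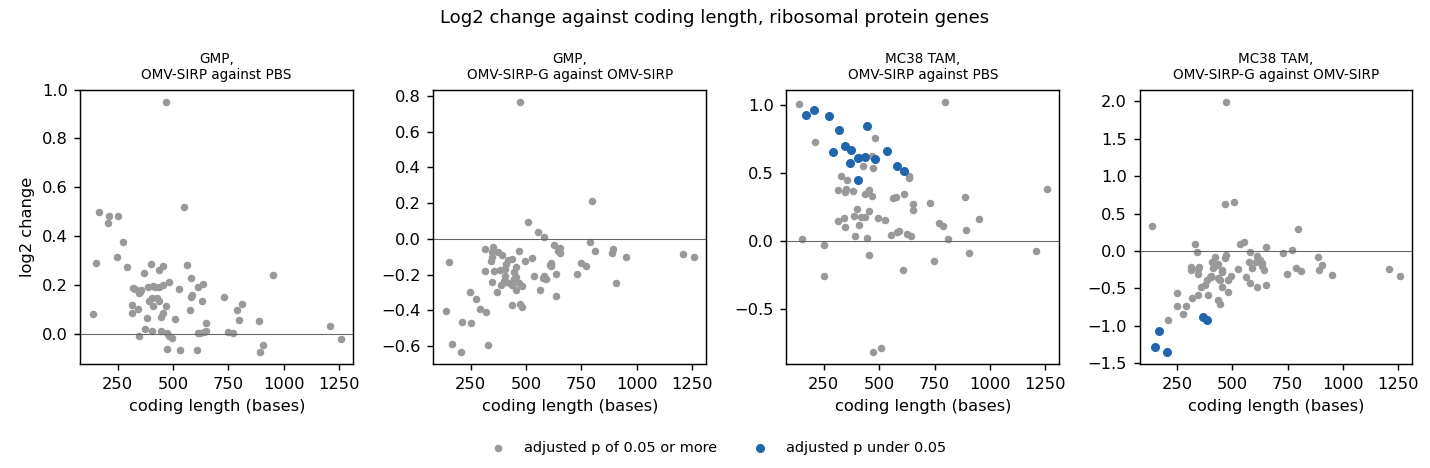
Log2 difference of each ribosomal protein gene against its coding length (bases) in GMP and MC38 TAM, for OMV-SIRP against PBS and OMV-SIRP-G against OMV-SIRP. Under 300 bases the MC38 TAM medians are 0.72 in the first comparison and −0.84 in the second as deposited, with short genes on both sides of 0 in each.

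Members with and without a pyrimidine run near the start had similar medians in most comparisons. In MC38 TAM the median difference of OMV-SIRP from PBS was 0.29 over 28 members with a run of at least 6 (5 called) and 0.32 over 28 without (7 called). For OMV-SIRP-G against PBS the medians were −0.12 with a run, where 3 were higher and 4 lower, and 0.06 without, where 1 was higher and 1 lower. For OMV-SIRP-G against OMV-SIRP they were −0.31 and −0.25 in MC38 TAM, and −0.22 and −0.19 in GMP. Members with no window in the promoter table, among them Rps29, Rps27a, Rpl29 and Rpl32, are left out of these medians.

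B16 TAM gave calls in the lower direction, most of them between the agents. Of 77 members, 5 fell after OMV-SIRP-G set against OMV-SIRP and none rose, while 5.62% of all 12542 genes tested fell, so the members' 5 calls were near the share of all genes. The median was −0.19, and 18 members had OMV-SIRP-G libraries all below the OMV-SIRP libraries (13.9% of all genes in that direction).
Rpl14 had 243, 276 and 227 FPKM after OMV-SIRP-G, against 328, 321 and 447 FPKM after OMV-SIRP (−0.54 ± 0.14, limma, adjusted p = 0.0288). Rpl26, which in human cells also promotes p53 translation, had 319, 342 and 352 FPKM after OMV-SIRP-G, against 475, 401 and 550.2 FPKM after OMV-SIRP (−0.48 ± 0.12, adjusted p = 0.0239). Rps4x, the X-linked Rps4 gene, had 455, 462 and 486 FPKM after OMV-SIRP-G, against 637, 544 and 703 FPKM after OMV-SIRP (−0.42 ± 0.10, adjusted p = 0.0283). OMV-SIRP library 3 was the highest in each of these 3 genes, and the groups did not overlap.
Rpl41 had 765, 336 and 407 FPKM after OMV-SIRP-G, against 840, 817 and 1348 FPKM after OMV-SIRP (−1.05 ± 0.29, adjusted p = 0.0485). Its OMV-SIRP-G library 1 stood near the OMV-SIRP libraries.
The stalk gene Rplp0 had 972, 1001 and 1007 FPKM after OMV-SIRP-G, 1256, 1240 and 1498 FPKM after OMV-SIRP, and 1539, 1252 and 1228 FPKM after PBS. Its 3 OMV-SIRP-G libraries lay below the other 6, and it fell against OMV-SIRP (−0.42 ± 0.11, adjusted p = 0.0383) and against PBS (−0.42 ± 0.11, adjusted p = 0.0298).

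Rplp0 was the only member called in B16 TAM between OMV-SIRP-G and PBS, where 7.28% of all genes tested fell and the members' median was −0.14. There 24 members had OMV-SIRP-G libraries all below the PBS libraries, against 18.6% of all genes. Between OMV-SIRP and PBS no member was called (1.45% of all genes were), 2 passed an unadjusted p of 0.05 (9.6% of all genes did), and the median was 0.06. All 10 macrophage markers were higher after OMV-SIRP-G than in both other groups, summing to 9506 to 10021 FPKM, 4376 to 6340 FPKM after OMV-SIRP and 4919 to 5503 FPKM after PBS. All 7 melanocyte markers were lower, summing to 823 to 935 FPKM after OMV-SIRP-G, 2415 to 2683 FPKM after OMV-SIRP and 2995 to 3260 FPKM after PBS. Erythroid markers summed to 3233 to 3267 FPKM after OMV-SIRP-G, 2220 to 3101 FPKM after OMV-SIRP and 16535 to 17906 FPKM after PBS, and all 5 tested fell after either agent against PBS. Of 10 T and NK cell markers, all 10 fell after OMV-SIRP-G against PBS and 8 after OMV-SIRP. Of all 12542 genes tested, 913 fell after OMV-SIRP-G against PBS and 71 after OMV-SIRP. Of 12 immediate-early and heat-shock genes, which respond to handling and stress, 7 rose and none fell after OMV-SIRP-G against OMV-SIRP, where 6.35% of all genes rose. The part of these shifts in the ribosomal protein differences was not tested. The counts moved with single libraries: between OMV-SIRP-G and OMV-SIRP, leaving out OMV-SIRP library 1, OMV-SIRP-G library 1 or OMV-SIRP-G library 2 left 1 call, and leaving out OMV-SIRP-G library 3 left none. Between OMV-SIRP-G and PBS, the call of Rplp0 held without PBS library 3 and was lost without any other of the 6 libraries compared. Without OMV-SIRP library 3, 1 member fell between OMV-SIRP and PBS.

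In GMP, the limma fit described above called no member in any comparison with all 9 libraries. Other models of those 9 libraries gave at most 3 calls between OMV-SIRP-G and OMV-SIRP and at most 1 between OMV-SIRP-G and PBS. Between OMV-SIRP-G and OMV-SIRP, limma called 14.8% of all 12287 genes tested, and 6 members passed an unadjusted p of 0.05 (29.8% of all genes did). The members' differences were small and one-sided: the median was −0.18, 71 of 76 lay below 0, and 54 had OMV-SIRP-G libraries all below the OMV-SIRP libraries, against 22.4% of all genes in that direction. In a fit of those 6 libraries alone, 36 members fell, while 12.2% of all genes did.
Rps28 had 91.1, 80.1 and 101 FPKM after OMV-SIRP-G, against 105, 142 and 186 FPKM after OMV-SIRP (−0.63 ± 0.30, adjusted p = 0.211). Rps29 had 351, 356 and 386 FPKM after OMV-SIRP-G, against 444, 503 and 740.3 FPKM after OMV-SIRP (−0.59 ± 0.30, adjusted p = 0.241). Rps6 had 806, 849 and 830.2 FPKM after OMV-SIRP-G, against 892, 893 and 948 FPKM after OMV-SIRP. The groups were apart in all 3 genes. Rpl24, with few reads, had the lowest adjusted p (0.0823) in that comparison, with 8.95, 6.56 and 6.85 FPKM after OMV-SIRP-G, against 6.29, 3.36 and 2.79 FPKM after OMV-SIRP.
Neutrophil markers summed to 35958 to 37192 FPKM in the OMV-SIRP-G GMP libraries, 57378 to 59625 FPKM after OMV-SIRP and 27464 to 38931 FPKM after PBS, although the label names a progenitor. The list was mixed between the agents: of its 10 genes, 3 rose and 6 fell after OMV-SIRP-G against OMV-SIRP. Of 17 cell cycle genes, 14 fell and none rose between OMV-SIRP-G and OMV-SIRP, where 8.12% of all genes fell. Of the 12 immediate-early and heat-shock genes, 11 rose there, where 6.7% of all genes did. The part of these shifts in the ribosomal protein differences between the agents was not tested.

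Against PBS, the GMP result turned on 1 library. Between OMV-SIRP and PBS the median was 0.13 with no call (18.2% of all genes were called) and 3 members at an unadjusted p under 0.05 (31.9%). Between OMV-SIRP-G and PBS it was −0.05 with no call (12% of all genes) and 4 at an unadjusted p under 0.05 (26.1%). Without PBS library 1, 37 members fell after OMV-SIRP-G, against 6.88% of all genes tested, and 5 fell after OMV-SIRP, against 6.61%. The stalk gene Rplp0 shows the spread behind this, with 1560, 1684 and 1719 FPKM after OMV-SIRP-G, 1812, 1728 and 1778 FPKM after OMV-SIRP, and 1226, 1593 and 1733 FPKM after PBS. PBS library 1 holds the low value. All 12 immediate-early and heat-shock genes rose after OMV-SIRP-G against PBS, where 830 of all 12287 genes tested did. The part of this shift in the ribosomal protein differences was not tested.

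In monocytes, no member was called in any comparison with all 9 libraries, and PBS library 2 set the medians. Between OMV-SIRP and PBS the members' median was −0.41, with 8.53% of all 12028 genes called and no member at an unadjusted p under 0.05 (23.2% of all genes). Between OMV-SIRP-G and PBS it was −0.52, with 3.67% of all genes called and 2 members at an unadjusted p under 0.05 (15.5%). Without PBS library 2 the medians were 0.09 and −0.03, so the first changed sign, and 1 member fell after OMV-SIRP-G (6.82% of all genes fell). All 4 erythroid markers tested fell after OMV-SIRP against PBS and 3 after OMV-SIRP-G, where 657 and 258 of all 12028 genes tested fell. After OMV-SIRP-G against PBS, 7 of the 12 immediate-early and heat-shock genes rose and 1 fell, where 184 of all genes rose. The part of these shifts was not tested.
Rps27a shows the most extreme values, at 156, 269 and 147 FPKM after OMV-SIRP-G, 117, 154 and 121 FPKM after OMV-SIRP, and 113, 1120 and 115 FPKM after PBS. Rplp1 measured 1956, 1650 and 2196 FPKM after OMV-SIRP-G, 1997, 2264 and 2449 FPKM after OMV-SIRP, and 2118, 6381 and 1957 FPKM after PBS. The other PBS libraries lie just below the treated ones in Rps27a and among them in Rplp1.
Between OMV-SIRP-G and OMV-SIRP, which do not involve that library, the median was −0.13, with no member called at an adjusted or an unadjusted p under 0.05, against 2.44% and 14.9% of all genes.

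**Figure D5:**
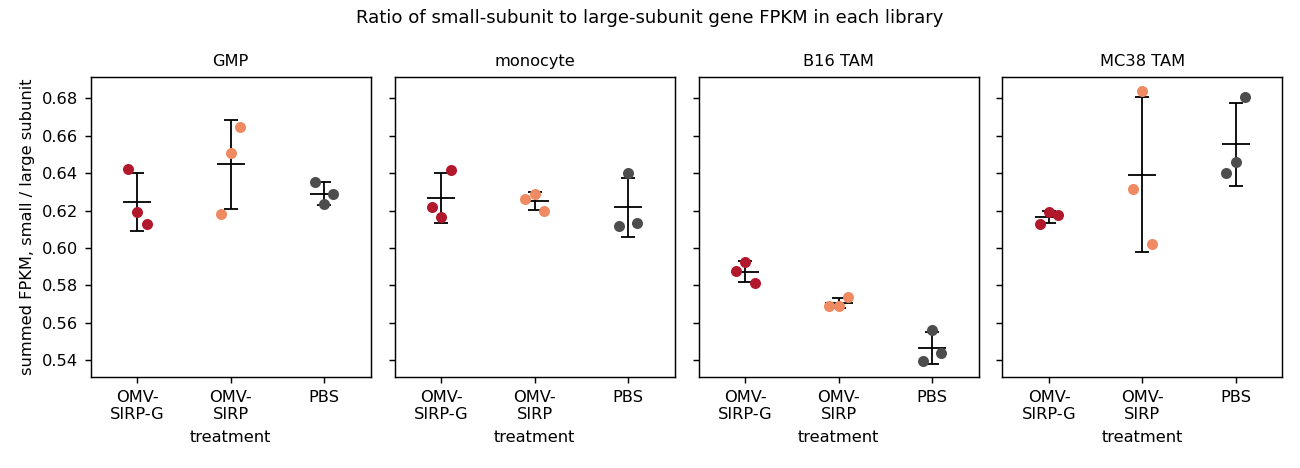
Ratio of the summed FPKM of small-subunit genes to that of large-subunit genes (stalk included) in each library, by population and treatment, with group mean and SD. In B16 TAM the OMV-SIRP-G libraries lie at 0.581 to 0.593 and the PBS libraries at 0.540 to 0.556, while in MC38 TAM the OMV-SIRP-G libraries lie below the PBS libraries.

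The ratio of small-subunit to large-subunit FPKM lies within a library and does not depend on its scaling. In GMP it averaged 0.625 after OMV-SIRP-G, 0.645 after OMV-SIRP and 0.629 after PBS, and in monocytes 0.627, 0.625 and 0.622, with overlapping groups. In B16 TAM it averaged 0.587 after OMV-SIRP-G, 0.571 after OMV-SIRP and 0.547 after PBS, and no group overlapped another. The difference between OMV-SIRP-G and PBS was 0.0406 (exact permutation test, two-sided, p = 0.1, the smallest that 3 against 3 libraries allow). In MC38 TAM it averaged 0.616 after OMV-SIRP-G, 0.639 after OMV-SIRP and 0.656 after PBS. The OMV-SIRP-G libraries, at 0.613 to 0.619, lay below the PBS libraries, at 0.640 to 0.681 (difference −0.0391, exact permutation test, p = 0.1), while the OMV-SIRP libraries spanned 0.602 to 0.684. Without the stalk genes and Rpl41 the B16 groups of OMV-SIRP-G and PBS stayed apart, at 0.791 to 0.830 and 0.774 to 0.786, while the OMV-SIRP libraries at 0.799 to 0.820 then lay inside the OMV-SIRP-G range, and the MC38 groups of OMV-SIRP-G and PBS touched, at 0.836 to 0.843 and 0.842 to 0.900.

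Genes that share the pathway were followed as lists. Their results are in the deposited scaling alone, and in MC38 TAM the members' differences from PBS depended on the scaling, as given above. Of 8 ribosomal protein genes whose symbols fall outside the rule, Fau, which makes a ubiquitin-like peptide fused to a small-subunit protein, stood out in MC38 TAM. It had 752, 751 and 744 FPKM after OMV-SIRP-G, 783, 732 and 789 FPKM after OMV-SIRP, and 455, 474 and 446 FPKM after PBS. The PBS libraries lay far below the rest, and Fau rose by 0.71 ± 0.09 after OMV-SIRP-G (limma, adjusted p = 0.00184) and by 0.74 ± 0.09 after OMV-SIRP (adjusted p = 0.00235). Rack1, the kinase scaffold of the small subunit, fell after OMV-SIRP-G against PBS by 0.45 ± 0.14 (adjusted p = 0.0467). In B16 TAM, Rpsa and Rps3a1 fell after OMV-SIRP-G against OMV-SIRP, by 0.51 ± 0.13 (adjusted p = 0.0286) and 0.41 ± 0.12 (adjusted p = 0.0442).

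Of 18 other genes known for TOP mRNAs, most of them for translation factors, 1 rose and 7 fell in MC38 TAM after OMV-SIRP-G against PBS (median −0.36), where 13.1% of all genes rose and 6.86% fell. After OMV-SIRP 1 rose and 5 fell (median −0.10), where 7.4% of all genes rose and 3.49% fell. Pabpc1, the poly(A)-binding protein, fell in both, by 0.87 ± 0.13 (limma, adjusted p = 0.00245) and 0.73 ± 0.13 (adjusted p = 0.00875), and Nap1l1, a histone chaperone, fell by 0.86 ± 0.13 after OMV-SIRP-G (adjusted p = 0.00264). The member that rose after OMV-SIRP was Vim, the intermediate filament gene, by 0.71 ± 0.11 (adjusted p = 0.00648). In B16 TAM after OMV-SIRP-G against PBS, 1 rose and 4 fell (median −0.30), where 7.83% of all genes rose and 7.28% fell, with Eef2, the translocation factor, lower by 0.38 ± 0.09 (adjusted p = 0.0136).

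Ribosome biogenesis genes had lower medians than the ribosomal protein genes in both MC38 TAM comparisons with PBS. Of 32, none rose and 14 fell after OMV-SIRP against PBS (median −0.77), and 1 rose and 16 fell after OMV-SIRP-G (median −0.85). Of all genes tested, 3.49% fell after OMV-SIRP and 6.86% after OMV-SIRP-G, with medians of 0.03 and 0.07. OMV-SIRP library 3 stood apart, with 29 of the 32 above its mates and a sum of 957 FPKM, against 632 and 582 FPKM. The PBS libraries summed to 1104 to 1313 FPKM. Dkc1, the pseudouridine synthase of ribosomal RNA, fell by 1.46 ± 0.15 after OMV-SIRP-G (limma, adjusted p = 0.000597). Tsr1, a factor of small-subunit maturation, fell by 1.41 ± 0.22 after OMV-SIRP (adjusted p = 0.00638), and Rrn3, an initiation factor of RNA polymerase I, fell by 1.21 ± 0.19 (adjusted p = 0.00638). Between OMV-SIRP-G and OMV-SIRP no biogenesis gene was called in MC38 TAM, and the median was −0.06, above that of the ribosomal protein genes.
In monocytes 5 of the 32 rose after OMV-SIRP against PBS, where 3.07% of all genes did, among them Nolc1, a nucleolar chaperone (0.63 ± 0.11, adjusted p = 0.0104), and Polr1a, the large subunit of RNA polymerase I (0.64 ± 0.12, adjusted p = 0.0176). In GMP 6 fell after OMV-SIRP against PBS, where 7.52% of all genes did, led by Taf1d, a factor of the same polymerase (−0.31 ± 0.05, adjusted p = 0.00428).

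Among 16 regulators, Myc, a transcription factor that drives ribosome production, fell in MC38 TAM after OMV-SIRP-G against PBS by 1.13 ± 0.24 (limma, adjusted p = 0.0128) and after OMV-SIRP by 1.02 ± 0.24 (adjusted p = 0.0308). In monocytes it fell after OMV-SIRP-G against PBS by 0.99 ± 0.09 (adjusted p = 0.000804), where the ribosomal protein genes were not called. Eif4ebp1, the translation repressor that mTORC1 inactivates, fell in GMP after OMV-SIRP-G against OMV-SIRP by 0.62 ± 0.11 (adjusted p = 0.00787) and rose after OMV-SIRP against PBS by 0.57 ± 0.11 (adjusted p = 0.00959). Larp1 fell in GMP after OMV-SIRP-G against PBS by 0.29 ± 0.06 (adjusted p = 0.0136).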

How the data were processed

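RNA was sequenced from 36 libraries; the labels' protocols name TRIzol and a NEBNext mRNA kit. Per the submitters' processing notes, HISAT2 2.0.5, StringTie and featureCounts 1.5.0-p3 were used with GRCm38. The authors deposited FPKM in 3 tables, 1 for both bone marrow populations and 1 for each tumour. All values came out as whole reads (within 0.05) once multiplied by gene length and a library factor, and the factors scale libraries within a table. Group and replicate were taken from the labels. Within each population, limma 3.58.1 (R 4.3.3) with trend and robust variance (statmod 1.5.0) was fitted to log2(FPKM + 1) of the 9 libraries, for genes with at least 1 FPKM in at least 3 libraries. P-values were adjusted by Benjamini-Hochberg over all genes tested, in 12 comparisons. Fold changes on this scale understate the change of low genes. The scripts were tested on simulated data.

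Genes were named as the 3 largest and 3 smallest changes among called members of a comparison, the 3 highest and 3 lowest members of a population, members followed for their role, and up to 2 genes of each other list with the lowest adjusted p. Rpl27a, Rpl29, Rpl32, Rpl36a, Rpl37, Rps25 and Rps26 and other examples outside this rule were chosen after their values were seen. Members and lists were chosen with earlier results of these data known. Replicate numbers did not pair the libraries. Reads assigned to genes were 13036567 to 19822660 per library. Alternatives were other scalings, no filter, a pseudocount of 0.1, limma voom on recovered reads, fits of 2 groups, a replicate block and leaving out each library. Of the called members, 1 is not reported here.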

Additional observations from a re-analysis of the deposited data

Results flagged for a closer look

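Each result here is a pair of populations in which every library of the tested treatment moved one way against the PBS libraries in 1 population and the opposite way in the other. The difference between the populations was not tested in any of the 4 cases, and each population comes from a table or fit of its own.

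Rps9 differed between OMV-SIRP and PBS by 0.547 on the log2 scale in MC38 TAM and by −0.583 in monocytes, where PBS library 2 stood at 2458 FPKM beside 929 and 867 FPKM. Rpl11 differed between OMV-SIRP-G and PBS by 0.749 in MC38 TAM and by −0.277 in GMP. Rpl27a differed between OMV-SIRP-G and PBS by 0.456 in MC38 TAM and by −0.196 in B16 TAM. The ratio of small-subunit to large-subunit FPKM after OMV-SIRP-G was 1.07 times that after PBS in B16 TAM and 0.94 times in MC38 TAM.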

How the results depend on the processing

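Counts of called members are given as higher and lower. A fit of 2 groups alone gave 2 in MC38 TAM for OMV-SIRP against PBS, 3 for OMV-SIRP-G against OMV-SIRP, and 23 (10 and 13) for OMV-SIRP-G against PBS. The same fit gave B16 TAM 1, 0 and 4 (1 and 3) in the same order, and in GMP 36 lower for OMV-SIRP-G against OMV-SIRP and 1 higher for OMV-SIRP-G against PBS. With no filter on low values, B16 TAM had 0 and 0 for OMV-SIRP-G against OMV-SIRP and against PBS, and MC38 TAM had 7 for OMV-SIRP against PBS, 2 for OMV-SIRP-G against OMV-SIRP and 3 (1 and 2) for OMV-SIRP-G against PBS. Scaling to total reads gave 3 in B16 TAM for OMV-SIRP-G against PBS, and in MC38 TAM 6 (2 and 4, so the direction turned) for OMV-SIRP against PBS, 1 for OMV-SIRP-G against OMV-SIRP and 16 lower for OMV-SIRP-G against PBS. Leaving mitochondrial genes out of that total, added after the data were seen, gave 16 and 11 in B16 TAM for OMV-SIRP-G against OMV-SIRP and against PBS, 8 in MC38 TAM for OMV-SIRP against PBS, and 12 lower there for OMV-SIRP-G against PBS. Scaling to the median of other genes left 0 and 0 in B16 TAM. Voom gave 8 and 3 in B16 TAM, and 1 and 1 in GMP, for OMV-SIRP-G against OMV-SIRP and against PBS.

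The replicate numbers did not pair the libraries (correlations of deviations −0.37 to 0.25, median 0.01). With the replicate block, MC38 TAM had 6, 0 and 5 (1 and 4) calls for OMV-SIRP against PBS, OMV-SIRP-G against OMV-SIRP and OMV-SIRP-G against PBS. The block gave 3 and 0 in B16 TAM and 3 (1 and 2) and 1 in GMP for OMV-SIRP-G against OMV-SIRP and against PBS.

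Leaving out each library gave, for OMV-SIRP against PBS, OMV-SIRP-G against OMV-SIRP and OMV-SIRP-G against PBS, 4 to 19, 0 to 8 and 1 to 7 in MC38 TAM, 0 to 1, 0 to 6 and 0 to 1 in B16 TAM, 0 to 5, 0 to 1 and 0 to 37 in GMP, and 0 to 0, 0 to 0 and 0 to 1 in monocytes. In MC38 TAM the 10 calls of OMV-SIRP-G against PBS became 6, 5, 2, 1 and 2 without PBS library 1, PBS library 2 or OMV-SIRP-G library 1, 2 or 3. In GMP the count of OMV-SIRP against PBS became 1 without PBS library 2 and 2 without PBS library 3, and that of OMV-SIRP-G against OMV-SIRP 1 without OMV-SIRP library 1.

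Of single genes, 2 turned round: Rpl10 in MC38 TAM for OMV-SIRP against PBS, to −0.35 with total-read scaling (adjusted p = 0.0483), and Rps25 in GMP for OMV-SIRP against PBS, where leaving out a library gave −0.20 to 0.13, the lowest without PBS library 1. Another 238 values lost and 84 gained their call under some alternative. The cause of these changes was not tested. With 3 libraries a group and these SDs, a small shift common to all genes cannot be told from scaling. In MC38 TAM the members' median less that of all genes moved less between scalings. Deposited, total-read, without mitochondrial genes and median of other genes gave 0.293, 0.205, 0.260 and 0.288 for OMV-SIRP against PBS. In the same order, OMV-SIRP-G against OMV-SIRP gave −0.310, −0.269, −0.314 and −0.317. What lies behind these differences was not tested.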
